A study of Mus musculus with 2 samples.

Results

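The facilitative glucose transporter genes are the Slc2a (GLUT) genes, which encode membrane proteins that let hexoses cross a cell membrane down their gradient. The 8 genes described here, Slc2a1, Slc2a2, Slc2a3, Slc2a4, Slc2a5, Slc2a8, Slc2a10 and Slc2a12, were listed by name, out of 22367 protein-coding genes of the GENCODE M1 annotation of the mouse genome (mm9). Binding of the transcription factor Rfx6 to them was read from the list of ChIP-seq peaks of Min6B1 cells, a mouse β cell line, into which 24 μg of a plasmid encoding Rfx6 with an HA tag (3HA-Rfx6) had been transfected. The tagged protein came from a transiently transfected pCMV plasmid and not from the Rfx6 gene of the cells. The cells were grown in 25 mM glucose and harvested 2 days after transfection, and the tagged protein was precipitated with the anti-HA antibody 12CA5. For the control, the same antibody was used on Min6B1 cells. Its label names no plasmid, but the growth text is shared by both samples, so that whether those cells received a plasmid cannot be told from the labels. The control enters here only through the background against which the peaks were called. There was 1 library of each, so no value below has a replicate error, and no difference between genes could be tested against a spread between replicates.

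The 3HA-Rfx6 library retained 33949757 of its 49443917 reads (68.7%) after removal of reads at the same position, and the control retained 3567375 of 16911298 (21.1%). The list holds 23308 peaks with 24 to 3489 reads and a median of 73. A peak was placed by its summit, its position of highest signal, and was assigned to a transporter gene when that summit was inside it or no more than 50 kb from either end. By this rule the 8 genes had 26 peaks, or 0.112% of the list, and no peak belonged to more than 1 of the 8.

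GLUT2, the product of Slc2a2, is the low-affinity, high-capacity transporter through which glucose enters rodent β cells and hepatocytes, so that the rate of entry follows blood glucose. GLUT1 (Slc2a1) and GLUT3 (Slc2a3) are high-affinity transporters of most cells and of neurons, GLUT4 (Slc2a4) is moved to the surface of muscle and fat cells by insulin, and GLUT5 (Slc2a5) carries fructose. GLUT8 (Slc2a8) is held largely in intracellular membranes, and GLUT10 (Slc2a10) and GLUT12 (Slc2a12) are later additions to the family. Rfx proteins recognise the X-box, a pair of inverted arms with a short spacer.

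The sequences that follow are 100 bases on either side of 6 summits, on the plus strand of mm9. They are the peak of Slc2a2, the peak of the group with the most reads, and 1 peak each of 4 other genes. Those 4 were picked because a motif lay within 3 bp of the summit, so their distances are no contrast with Slc2a2. Of the 4, only the Slc2a3 peak is the highest of its gene. The highest peaks of Slc2a1, Slc2a4, Slc2a10 and Slc2a12 had no match, and that of Slc2a5 had one 59 bp from the summit. Capitals mark a match to a relaxed X-box or to GTTGCC, which is a single arm of the X-box and was searched on both strands. The Slc2a2 peak, at chr3:28639253-28639453, held a relaxed X-box 30 bp from the summit. The peak with the most reads, at Slc2a8 (chr2:32836850-32837050), had a relaxed X-box 83 bp from the summit. The peak in intron 2 of the long Slc2a3 transcript (chr6:122719239-122719439) had one 3 bp from the summit. In intron 1 of Slc2a1 (chr4:118792791-118792991) an arm lay 3 bp from the summit, and in intron 3 of Slc2a5 (chr4:149497439-149497639) the summit lay on an arm. The upstream peak of Slc2a10 in intron 1 of Slc13a3 (chr2:165288675-165288875) had its summit inside a relaxed X-box that contains an arm.
Slc2a2: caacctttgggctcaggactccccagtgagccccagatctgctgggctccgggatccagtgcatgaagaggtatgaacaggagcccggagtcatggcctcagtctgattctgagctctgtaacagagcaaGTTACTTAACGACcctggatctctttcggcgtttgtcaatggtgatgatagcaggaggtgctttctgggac
Slc2a8: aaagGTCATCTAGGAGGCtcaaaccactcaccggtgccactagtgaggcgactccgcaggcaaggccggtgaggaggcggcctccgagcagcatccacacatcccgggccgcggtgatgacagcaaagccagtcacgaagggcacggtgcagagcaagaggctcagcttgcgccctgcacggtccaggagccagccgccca
Slc2a3: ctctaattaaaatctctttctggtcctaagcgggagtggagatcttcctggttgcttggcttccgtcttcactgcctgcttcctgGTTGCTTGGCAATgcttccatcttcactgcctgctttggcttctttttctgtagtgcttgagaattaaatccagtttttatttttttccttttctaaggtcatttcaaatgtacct
Slc2a1: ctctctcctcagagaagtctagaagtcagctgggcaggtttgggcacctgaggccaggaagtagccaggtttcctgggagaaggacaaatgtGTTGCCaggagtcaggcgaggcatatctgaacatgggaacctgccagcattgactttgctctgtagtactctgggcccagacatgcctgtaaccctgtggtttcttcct
Slc2a5: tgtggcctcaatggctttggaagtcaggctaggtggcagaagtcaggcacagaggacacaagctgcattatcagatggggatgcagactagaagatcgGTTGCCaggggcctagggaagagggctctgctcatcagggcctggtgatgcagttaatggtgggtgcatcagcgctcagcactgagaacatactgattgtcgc
Slc2a10: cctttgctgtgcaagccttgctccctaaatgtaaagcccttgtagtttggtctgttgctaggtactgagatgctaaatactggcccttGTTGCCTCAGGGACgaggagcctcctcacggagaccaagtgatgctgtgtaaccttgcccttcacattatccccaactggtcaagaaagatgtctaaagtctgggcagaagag

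Slc2a2 had no listed peak in the gene, at its start or upstream of it within 50 kb. The gene (ENSMUSG00000027690.7) occupies 28596825 to 28627278 of chromosome 3 (plus strand, mm9) and had 1 peak, which was intergenic and lay beyond its 3′ end. The peak spanned 28638667 to 28640086, and its summit, at 28639353, was 12.1 kb past the end of the gene and 42.5 kb from its start. It held 110 reads (exact Poisson 95% interval 90.4 to 133) and had a fold enrichment over the background of 11.0, the lowest among the highest folds of the 8 genes, and 27.3% of all peaks held at least as many reads. Poisson intervals cover counting error only.

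The nearest protein-coding start to this summit was that of Gm6505, 24961 bp away, and not that of Slc2a2. On the other side, the nearest summit upstream of the Slc2a2 start was at a distance of 135 kb and belonged to a weak peak (55 reads, 3.68-fold). The start of Slc2a2 therefore lay in a stretch of 178 kb without a summit. Such a stretch was common, since 45.6% of the 22124 protein-coding starts between neighbouring summits lay in one at least as wide. Of all protein-coding genes, 59.5% had a summit at most 42528 bp from the start. A region that did not pass the peak caller's p-value of 1e-05 is not in the list, and no listed peak held fewer than 24 reads, so weaker binding at the Slc2a2 promoter was not detectable at this depth.

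**Figure D1:**
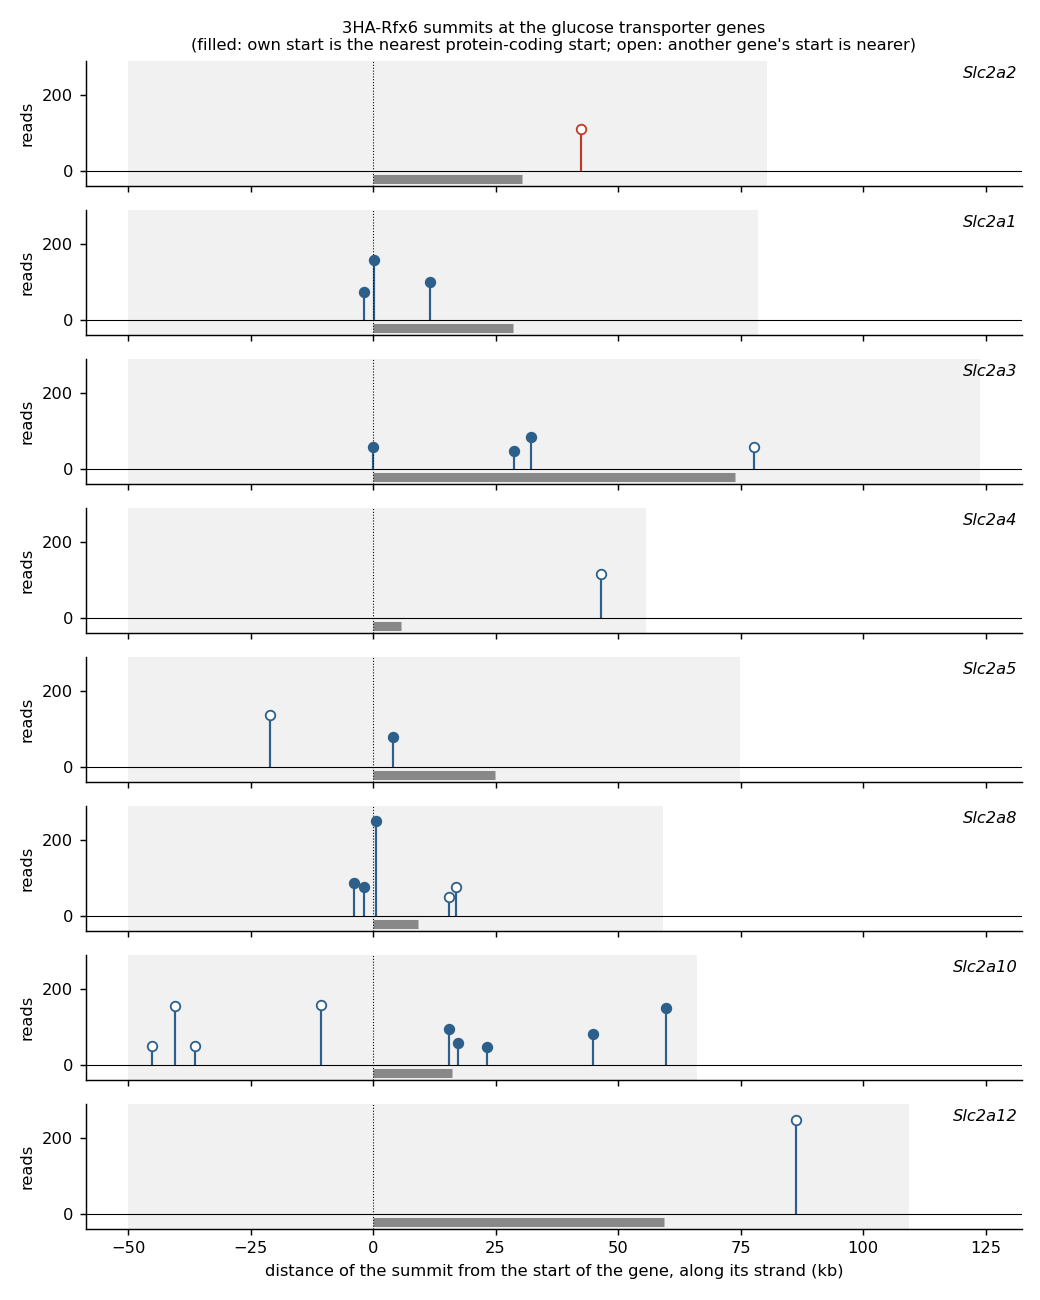
Reads of each 3HA-Rfx6 peak (vertical axis) against the distance of its summit from the start of the gene along its strand (horizontal axis, kb), 1 panel per gene. The grey bar is the gene, the light field the gene with 50 kb on either side, filled points are summits whose nearest protein-coding start is that of the gene itself and open points those nearer to another start. Slc2a2 has 1 open point at 42.5 kb, whereas Slc2a8 and Slc2a1 have their highest peaks of 249 and 157 reads just after the start.

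Among the other genes, Slc2a8 and Slc2a1 carried peaks at their own starts. Slc2a8 (ENSMUSG00000026791.8) occupies 32828510 to 32837603 of chromosome 2 (minus strand) and had 5 peaks. The highest of all 26 was one of these, from 32836185 to 32837832, with its summit in coding exon 3, 653 bp after the start. It held 249 reads (219 to 282) at a fold enrichment of 21.42, and 4.52% of all peaks held as many. The next summits were 1826 and 3923 bp upstream of the start, with 75 and 87 reads. The remaining summits lay past the 3′ end, with 48 and 76 reads, and were nearer to the start of Lrsam1.

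Slc2a1 (ENSMUSG00000028645.4), at 118781316 to 118809935 of chromosome 4 (plus strand), had 3 peaks, and each was nearest to the Slc2a1 start. The highest lay 227 bp after the start, in the untranslated part of exon 1, with 157 reads (133 to 184) and a fold enrichment of 15.18. A peak of 101 reads in intron 1, 11.6 kb after the start, had the higher fold enrichment, 18.6. The third lay 1949 bp upstream and held 74 reads at a fold enrichment of 5.28, which 88.4% of all peaks reached.

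Slc2a3 (ENSMUSG00000003153.4) is annotated at 122677827 to 122751658 of chromosome 6 (minus strand) and had 4 peaks, of 47, 57, 57 and 83 reads, of which the last alone was above the median of the list. A summit of 57 reads lay 51 bp upstream of the annotated start, but only the putative transcript Slc2a3-008 begins there. The shorter Slc2a3-001 starts at 122692763, and the nearest summit to that start was 18.9 kb downstream, past the 3′ end of the gene and closer to the start of Nanog than to the annotated start. The peak of 83 reads (66.1 to 103) lay in intron 2 of Slc2a3-008, 26.6 kb upstream of the start of Slc2a3-001.

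Slc2a5 (ENSMUSG00000028976.4), at 149493392 to 149518278 of chromosome 4 (plus strand), had a peak of 79 reads (62.5 to 98.5) in intron 3, 4147 bp after its start, with a fold enrichment of 12.71. Its higher peak, of 137 reads at a fold enrichment of 10.83, lay 21 kb upstream in intron 1 of the neighbouring gene Gpr157. The peak inside the gene was thus the weaker in reads, though not in fold enrichment.

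Slc2a10 (ENSMUSG00000027661.4), at 165329287 to 165345417 of chromosome 2 (plus strand), had 9 peaks, the most of the 8 genes. Of all protein-coding genes, 4.14% had at least 9. Only 1 of them lay in the gene, in the untranslated part of exon 5, with 95 reads. The highest, of 157 reads, lay 10.7 kb upstream of Slc2a10 and 238 bp after the start of 2810408M09Rik, in a coding exon of that gene. Upstream of it, 3 summits lay in intron 1 of Slc13a3, which encodes a sodium-dependent dicarboxylate transporter, with 48, 49 and 156 reads. Downstream of the gene, 4 intergenic summits held 46, 56, 82 and 149 reads, and the last of these lay 43.7 kb past the end with a fold enrichment of 16.95.

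Within the 50 kb limit, Slc2a4 and Slc2a12, like Slc2a2, had 1 peak each, which lay beyond the 3′ end and nearer to another start. The Slc2a4 gene (ENSMUSG00000018566.7) occupies 69756045 to 69761690 of chromosome 11 (minus strand). Its peak, of 115 reads (94.9 to 138) at a fold enrichment of 14.12, lay 40.8 kb past the gene, 153 bp upstream of the start of Neurl4. The Slc2a12 gene (ENSMUSG00000037490.5) occupies 22364817 to 22424091 of chromosome 10 (plus strand). Its peak held 247 reads (217 to 280) and had the highest fold enrichment of the 26, 28.96, but it lay 26.9 kb past the gene and 707 bp after the start of Tbpl1, in an untranslated part of exon 1. No gene is assigned to a peak by the list, so these 3 peaks were counted by distance alone.

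The 8 genes were then read against all protein-coding genes. A summit in the gene or within 50 kb was present for 8 of 8 (95% Wilson interval 67.6 to 100%), and 67.8% of all protein-coding genes had one. In the gene itself, 5 of 8 had a summit (30.6 to 86.3%), against 31.3% of all genes. Slc2a2, Slc2a4 and Slc2a12 were the 3 without. Within 10 kb of the start, 4 of 8 had a summit (21.5 to 78.5%), against 35.7%, and within 1 kb 3 of 8 (13.7 to 69.4%), against 20.1%. The 3 genes with a summit within 1 kb were Slc2a1, Slc2a3 and Slc2a8, and with the start of Slc2a3-001 in place of Slc2a3-008, which was chosen after seeing the data, they were 2. A peak of at least 100 reads was present for 7 of 8 (52.9 to 97.8%), against 39.8%. That 39.8% is over all genes, including those without a summit. Of the 15176 genes with a summit within 50 kb, as all 8 had, 8893 had such a peak. Moreover, 5 of the 7 highest peaks concerned, those of Slc2a2, Slc2a4, Slc2a5, Slc2a10 and Slc2a12, were nearer to the start of another gene. These genes were chosen by family and not at random, so the intervals do not serve as a test, and no test was run on the counts.

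**Figure D2:**
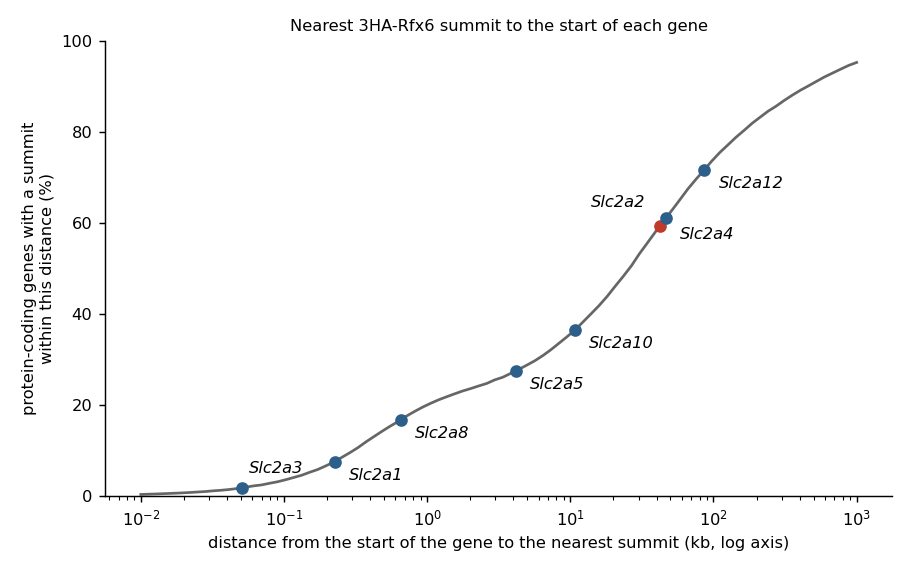
Share of protein-coding genes (vertical axis, %) with a 3HA-Rfx6 summit within a given distance of the start (horizontal axis, kb, log scale), drawn as a line, with the 8 transporter genes placed at the distance of their own nearest summit and Slc2a2 in red. Slc2a3, Slc2a1 and Slc2a8 lie below 1 kb, while Slc2a2 (42.5 kb), Slc2a4 (46.5 kb) and Slc2a12 (86.2 kb) lie in the upper part of the curve. Slc2a3 is placed by the start of Slc2a3-008, and from that of Slc2a3-001 the distance is 18.9 kb.

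By the distance of the nearest summit to the start, the genes followed the order Slc2a3 (0.051 kb), Slc2a1 (0.227 kb), Slc2a8 (0.653 kb), Slc2a5 (4.15 kb), Slc2a10 (10.7 kb), Slc2a2 (42.5 kb), Slc2a4 (46.5 kb) and Slc2a12 (86.2 kb). The median of the 8 was 7.42 kb, and that of all protein-coding genes was 25.6 kb. The place of Slc2a3 rests on the start of the putative transcript Slc2a3-008. From the start of Slc2a3-001 its nearest summit was 18.9 kb away, which would place it after Slc2a10 and raise the median of the 8. Slc2a2 thus stood with the insulin-responsive transporter gene Slc2a4 and with Slc2a12, on the far side of the median of all genes. The windows of the 8 genes held 2.48 summits per 100 kb, against 1.66 over the windows of all protein-coding genes, and Slc2a10 alone gave 9 of the 26 summits. Slc2a2 had 0.767 per 100 kb and Slc2a10 had 7.75.

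By the highest peak, Slc2a2 ranked below 6 of the other 7 genes and above Slc2a3. The peaks of Slc2a8 and Slc2a12 held 2.26 times (95% interval for counting error 1.8 to 2.86) and 2.25 times (1.79 to 2.84) as many reads as that of Slc2a2, and those of Slc2a1 and Slc2a10 each 1.43 times (1.11 to 1.84). Those 4 intervals exclude a ratio of 1 by counting error alone, with reads not scaled to peak width. They do not cover the choice of the highest of several peaks at Slc2a8, Slc2a1 and Slc2a10, against the only peak of Slc2a2. The peaks of Slc2a12 and Slc2a10 used here lay nearest to the starts of Tbpl1 and 2810408M09Rik. The peak of Slc2a10 was 2093 bp wide with a fold enrichment of 11.45, against 1420 bp and 11.0-fold at Slc2a2. Those of Slc2a1, Slc2a8 and Slc2a12 were 1605, 1648 and 1501 bp wide, at 15.18, 21.42 and 28.96-fold. The highest peaks of Slc2a5 (1.25 times, 0.962 to 1.62), Slc2a4 (1.05 times, 0.798 to 1.37) and Slc2a3 (0.755 times, 0.56 to 1.01) were not separated from that of Slc2a2 by counting error. In the order of the 8, Slc2a8 and Slc2a12 had overlapping intervals, as did Slc2a1, Slc2a10 and Slc2a5 with each other. By fold enrichment, all 7 other genes had a peak above the 11.0-fold of Slc2a2, from 12.71-fold at Slc2a5 to 28.96-fold at Slc2a12. That count takes the highest fold of any peak of a gene, and genes with several peaks had more chances than Slc2a2 with 1. By the peak with the most reads, Slc2a5 (10.83-fold) lay below Slc2a2, Slc2a10 (11.45-fold) was close to it, and the remaining genes lay above it. Against all protein-coding genes with a peak, whose highest peak had a median of 116 reads, Slc2a2 and Slc2a4 lay close to the middle.

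**Figure D3:**
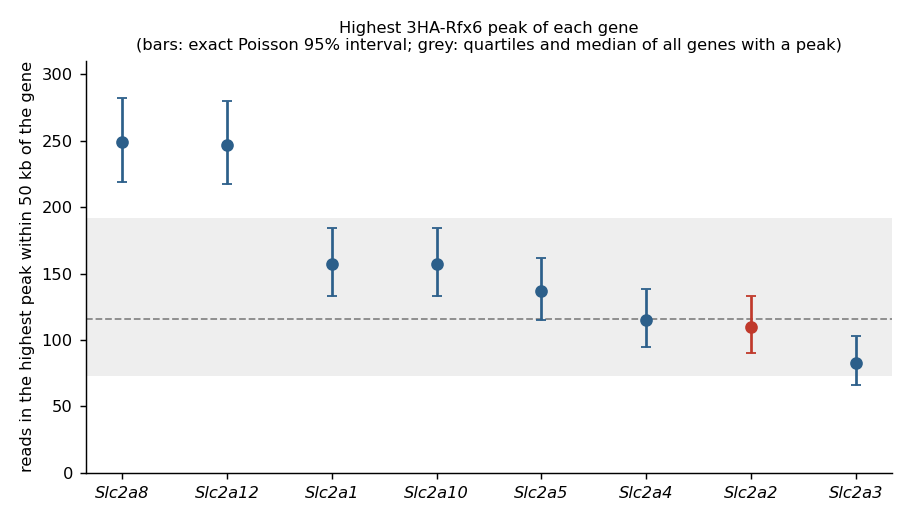
Reads in the highest 3HA-Rfx6 peak within 50 kb of each gene (vertical axis), with exact Poisson 95% intervals, in descending order and with Slc2a2 in red. The dashed line is the median (116 reads) and the grey band the quartiles (73 to 192 reads) of all protein-coding genes with a peak; Slc2a8 (249) and Slc2a12 (247) lie above the band and Slc2a2 (110) within it.

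Counting only peaks whose nearest protein-coding start is that of the transporter gene itself, 15 of the 26 remained. Slc2a10 kept 5 of them, Slc2a1, Slc2a3 and Slc2a8 kept 3 each, and Slc2a5 kept 1. The highest of these held 249 reads at Slc2a8, 157 at Slc2a1, 149 at Slc2a10, 83 at Slc2a3 and 79 at Slc2a5. Slc2a2, Slc2a4 and Slc2a12 kept 0, so under this stricter assignment the β cell transporter gene had no peak.

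The starts of the genes differed in base composition. A start was called CpG-rich when the 1 kb around it had at least 50% G and C and a ratio of observed to expected CpG of at least 0.6. Slc2a1, Slc2a3, Slc2a8 and Slc2a12 had such starts, with ratios of 0.81, 0.79, 0.69 and 0.687, and 3 of these 4 had a summit within 1 kb. Slc2a2 had the lowest ratio, 0.178, and the lowest share of G and C, 45.3%, and of the 4 genes without a CpG-rich start 0 had a summit within 1 kb. Over all genes, 33.8% of the 9883 with a CpG-rich start had a summit within 1 kb, against 9.29% of the 12484 others. Base composition moved with the presence of a peak at the start, and its part in the absence of one at Slc2a2 was not tested.

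Sequence at the 26 summits was compared with that at all 23308. Within 100 bp of the summit, a relaxed X-box, with a spacer of 1 to 3 bases, was found at 10 of the 26 (38.5%, Wilson interval 22.4 to 57.5%), against 46% of all summits. In windows of the same length 1 kb to the right of the summits, the shares were 8 of 26 (30.8%) and 23%. A strict X-box was found at 0 of the 26, which allows a share of up to 12.9% by the Wilson interval, and 6.44% of all summits had one. The single arm GTTGCC was found at 8 of the 26 (30.8%, 16.5 to 50%) and at 1 of the 26 windows 1 kb to the right (3.85%, 0.682 to 18.9%), against 26.8% and 6.44% over all peaks. The arms of Slc2a1 and Slc2a5 printed above were among these 8, whereas the Slc2a2 window had 0. A relaxed X-box or an arm was present at 15 of the 26 (57.7%, 38.9 to 74.5%) and at 56.8% of all summits. With 26 windows, that interval is too wide to tell whether the transporter peaks were like the list. A match is a description of the sequence and not a measured site.

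Among the transporter peaks, CpG-dense summits had a match less often than other summits, though the intervals given below overlap. Divided at 10 CpG within 100 bp, a limit chosen after seeing the values, 7 summits had 14 to 34 CpG and 19 had 0 to 7. Of the 7, 1 had a relaxed X-box or an arm (14.3%, 2.57 to 51.3%), namely the peak in exon 3 of Slc2a8, and of the 19, 14 had one (73.7%, 51.2 to 88.2%). Over all peaks the same division gave 45.7% of 4127 and 59.2% of 19181. The CpG-dense summits included those at the starts of Slc2a1, Slc2a3, Neurl4, 2810408M09Rik and Tbpl1. The Slc2a2 summit belonged to the others, with 5 CpG. The median number of reads was 157 for the 7 peaks and 76 for the 19, against 83 and 70 over all peaks.

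**Figure D4:**
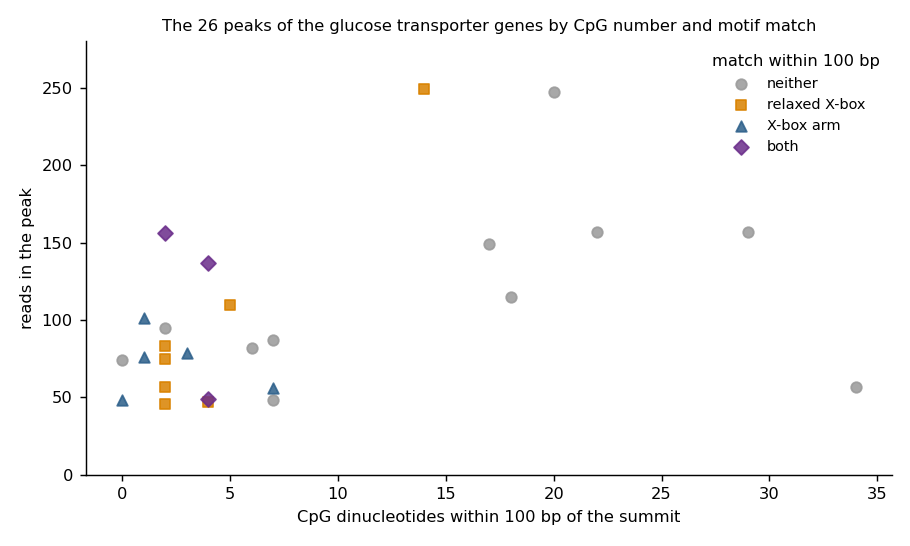
Reads in each of the 26 peaks of the transporter genes (vertical axis) against the number of CpG dinucleotides within 100 bp of the summit (horizontal axis), with the symbol showing whether a relaxed X-box, a single X-box arm, both or neither lay in that window. Of the 7 summits with at least 14 CpG, 1 has a match; of the 19 with at most 7, 14 have one.

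Other glucose transport genes were read in the same way, from lists of related genes. The 4 other Slc2a genes searched, Slc2a6, Slc2a7, Slc2a9 and Slc2a13, each had a summit within 50 kb, as did 67.8% of all protein-coding genes. Slc2a6, which encodes a lysosomal hexose transporter, had 12, but 0 in the gene. Its highest, with 526 reads, lay 28.6 kb upstream of its start and nearer to that of Tmem8c. The listed false discovery rate of that peak was 17.29%. For the highest peaks of Slc2a8, Slc2a12 and Slc2a2 it was 5.76%, 5.83% and 4.81%. The highest peak of Slc2a13, the gene of the proton myo-inositol cotransporter, held 117 reads in an intron 200 kb from the start, and the 1 summit assigned to Slc2a7 was the intronic peak of Slc2a5. Of the 4 genes of the sodium-glucose cotransporter type, Slc5a1, Slc5a2, Slc5a4a and Slc5a4b, 4 had a summit within 50 kb and 0 had one within 10 kb of the start, against 67.8% and 35.7% of all protein-coding genes. The highest, of 198 reads, lay 48.2 kb past the end of Slc5a2 and nearer to the start of BC017158.

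Of the 6 regulators of transporter trafficking or stability, 5 had a summit within 50 kb and Lnpep had none, against 67.8% of all protein-coding genes with one. Tbc1d4, which encodes a Rab GTPase-activating protein that retains GLUT4 inside the cell, had a peak of 158 reads in a coding exon 955 bp after its start. Tbc1d1, its paralogue, had 7 summits, the highest with 111 reads 1001 bp after its start. Txnip, whose product promotes the removal of GLUT1 from the cell surface, had a summit 24 bp after its start in a peak that held 42 reads, and its highest peak held 110 reads 7.76 kb past the gene. The highest peaks of Sort1 and Aspscr1 held 122 and 233 reads and lay 40.8 and 6.47 kb past the gene. All 3 of these highest peaks, of Txnip, Sort1 and Aspscr1, were nearer to another protein-coding start. For Txnip it was Gm16253. The Sort1 peak lay in an intron of Celsr2, and the Aspscr1 peak in a coding exon of Lrrc45, 1993 bp after its start. Of the 6 Aspscr1 summits, 0 were nearest to the Aspscr1 start.

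The distance limit decided some of the assignments. Among the assigned summits, the farthest from its gene was the one of 48 reads 45.1 kb upstream of Slc2a10. The nearest one not assigned lay 52.4 kb from Slc2a1 and held 87 reads.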

How the data were processed

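Min6B1 cells transfected with 3HA-Rfx6 and control Min6B1 cells were analysed by anti-HA ChIP-seq with 50-base single-end reads, 1 library each. By the submitters' processing notes, CASAVA 1.8.2, Bowtie and MACS 1.4.2 were used on mm9. Per the file headers, MACS kept at most 1 read per position, used a fragment size of 234 bp and a p-value cutoff of 1e-05, and set the 3HA-Rfx6 library against the control. The deposited peak list gives the count of reads per peak, not normalized, the fold enrichment over the local background, a score computed from the p-value on a log10 scale, and the false discovery rate as a percent, on which nothing here was selected. The control retained fewer reads, and the effect of this on the deposited fold values was not tested.

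Summits (start plus summit offset minus 1) were placed on NCBIM37 (mm9), where 23308 of 23308 peaks ended inside their chromosome, and compared with the protein-coding genes of GENCODE M1, mitochondrial genes left out. Named were the 8 genes with all their peaks, the protein-coding gene whose start was nearest to each peak, and the genes of 3 further lists, with values for those with a peak of at least 100 reads. The genes and lists were chosen with earlier results of these data known. X-boxes were searched by pattern on both strands of the 201 bases around each summit, the relaxed and strict patterns being looser and tighter forms of the consensus. Exact Poisson and Wilson intervals (95%) cover counting error only, and ratios of read numbers have exact conditional binomial intervals. Reads without molecular identifiers are not independent molecules. The search and the assignment were tested on simulated data. The tools were scipy 1.17.1, pysam 0.24.0, pandas 2.3.3, numpy 2.4.6 and matplotlib 3.10.9 under Python 3.11.15. Alternatives were other distances, stricter peak sets, other rankings, other X-box patterns and windows, and a different start of Slc2a3.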

Additional observations from a re-analysis of the deposited data

How the results depend on the processing

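No paired analysis was possible because each condition had a single library, and leaving out a replicate could not be tried either. Of 26 alternative values, 19 differed from the reported value by at most 1.5 times or lay within its counting interval. The nearest summit to the start of Slc2a2 was the same one, 42528 bp away, among the 50% of peaks with the highest scores and among those with a fold enrichment of at least 10. The number of genes with a summit was 6 to 8 under every alternative run, since Slc2a4 and Slc2a12 lost theirs within 20 kb and Slc2a12 lost its own within 50 kb of the start. A limit of 10 kb was not run, and the only Slc2a2 summit, 12.1 kb past the gene, lies outside it. The 26 summits became 52 within 100 kb, 17 in the 50% of peaks with the highest scores and 16 at a fold enrichment of at least 10. Within 100 kb Slc2a4 had 7 summits, the highest with 278 reads. There Slc2a2 had 2, the highest with 110 reads, and Slc2a12 still had 1. The number of genes whose highest peak exceeded that of Slc2a2 was 6. It was 3 within 20 kb, where Slc2a4 and Slc2a12 had no peak and the highest of Slc2a5 held 79 reads. Within 50 kb of the start, where Slc2a12 had none, it was 5. By the highest fold enrichment of any peak of each gene, it was 7. The share of summits with a relaxed X-box, 38.5%, was 0% with the strict pattern, 19.2% within 50 bp of the summit and 92.3% over whole peaks. The list holds peaks past the caller's cutoff alone, so an absent peak limits binding to what this depth could show.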
